A study of Homo sapiens with 2 samples.

Results

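The genes studied here are 7 transporters and enzymes that handle monoamines in a neuron, found by their listed symbols among the 61487 features counted in both libraries. SLC6A4, SLC29A4 and SLC22A3 take monoamines up across the plasma membrane, SLC18A2 and SLC18A1 pack them into vesicles, and MAOA and MAOB degrade them. All 7 symbols were found, and 5 of the 7 genes reached 10 CPM in at least 1 library, CPM being the UMIs of a gene in every 1000000 UMIs of the kept cells.

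The data were single-cell 3′ UMI counts of serotonin neurons (SNs) at day 42 of the differentiation of H9 (WA09) human pluripotent stem cells (hPSCs). Both libraries came from cells carrying an EGFP knock-in at TPH2, the gene of the enzyme that starts serotonin synthesis in neurons, and both were sorted for EGFP. The library labelled WT had no further edit, and the library labelled FKO also carried a FOXA2 knockout. Purmorphamine, a Sonic hedgehog pathway agonist, was part of the differentiation, but the dose behind each library is not given in the sources used here. For some staining at day 42 the paper used a lower dose for wild-type than for knockout cells. Dose may therefore differ along with the label, and its part in any difference was not tested. The reporter line with the knockout was made from FKO2 hPSCs, in which a small insertion or deletion shifts the FOXA2 reading frame. Each genotype was a single hPSC line and a single library, so there was no test between conditions, no value had a replicate check, and an EGFP sort set which cells could be counted.

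Before filters, the library labelled WT held 11052 barcodes and 123064653 UMIs, and the library labelled FKO held 8806 barcodes and 70588747 UMIs. After filters on UMIs, genes, mitochondrial share and doublets, 5749 cells (52.0%) of the library labelled WT were kept, with a median of 12460 UMIs per cell. The FKO label kept 6978 cells (79.2%), with a median of 6927 UMIs. The median mitochondrial share of kept cells was 7.82% under the WT label and 5.33% under the FKO label. The libraries shared 21 barcodes, of which 5 were kept in both.

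FOXA2, the targeted gene, had the higher transcript level under the FKO label. It had 334 UMIs (4.35 CPM) under the WT label and 1265 UMIs (21.8 CPM) under the FKO label, a log2 ratio of FKO over WT of 2.33 (95% interval 2.15 to 2.51). By point value, FOXA2 was higher under the FKO label in all 11 clusters with at least 50 cells of each library. Some of these rest on small or near-equal counts. Cluster 1 had 42 and 41 UMIs (2.89 and 4.21 CPM), cluster 8 had 9 and 9, and cluster 9 had 0 and 4. The highest FOXA2 level was in cluster 11 in both libraries, at 67.5 and 308 CPM. A 3′ count does not show a frameshift, so the transcript level does not tell whether a functional protein was made. Every direction given for the transporters and oxidases rests on the labels, so values are given as those under the WT label or under the FKO label.

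After release, serotonin is taken back into the neuron by the sodium-driven serotonin transporter encoded by SLC6A4, the target of selective serotonin reuptake inhibitors. Inside the cell it is either loaded into vesicles by the proton-driven transporter VMAT2, encoded by SLC18A2, or oxidised at the outer mitochondrial membrane by monoamine oxidase A or B. Serotonin is the better substrate of monoamine oxidase A, whereas adult serotonergic neurons are known for the B enzyme, and low-affinity carriers such as PMAT (SLC29A4) and OCT3 (SLC22A3) provide a second route of uptake.

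The packing gene SLC18A2 and the oxidase gene MAOA had the higher CPM under the FKO label, while MAOB had the lower. Over the 9676 genes with at least 10 CPM in either library, the log2 ratios of FKO over WT had a median of 0.47, so each member was read relative to that median. Of the 5 members that reached 10 CPM, SLC18A2 and MAOA were at least 1.5-fold higher under the FKO label relative to the median, a count of 2, beside 17.9% of all genes. MAOB alone was at least 1.5-fold lower, a count of 1, beside 23.4% of all genes. MAOA reached 10 CPM only under the FKO label, so the difference itself brought it among the 5. With 5 genes, these counts do not set the members apart from all genes. SLC6A4 and SLC29A4 were above the median by less than 1.5-fold. Intervals on levels, ratios and shares are exact at 95% and cover counting error only.

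Among the uptake genes, SLC6A4 had 1623 UMIs under the WT label, or 21.1 CPM (20.1 to 22.2). It had 2527 UMIs under the FKO label, or 43.6 CPM (41.95 to 45.4). The intervals did not overlap, and the level was higher under the FKO label, with a log2 ratio of 1.05 (0.96 to 1.14). Relative to the median of all genes the ratio was 0.57, or 1.49-fold, just short of the 1.5-fold limit. SLC6A4 passed that limit, which made the count of higher members 3, at no more than 5% mitochondrial UMIs, with doublets kept and in clusters 1 to 6, 8 and 9. Its ratio was also past the limit in cells with a TPH2 UMI (0.74 relative to the median) and with clusters weighted equally (0.79).

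SLC29A4, the plasma membrane monoamine transporter, had 16.4 CPM (15.5 to 17.3) under the WT label and 27.8 CPM (26.4 to 29.2) under the FKO label. Its log2 ratio was 0.76 (0.65 to 0.87), which left 0.29 relative to the median of all genes. SLC29A4 overlaps TNRC18 on the opposite strand, a gene with 1154 UMIs under the WT label and 2056 under the FKO label. On opposite strands, too, SLC18A2 overlaps PDZD8 (2086 and 3574 UMIs) and 2 low noncoding genes, and SLC6A4 overlaps 1 low gene (57 and 90 UMIs). SLC22A3, the organic cation transporter OCT3, had 1 UMI under the WT label and 2 UMIs under the FKO label, and no ratio was taken from so few. Its transcript was thus not measurable at this depth in either library. Summed over the 3 uptake genes, the level was 37.5 CPM under the WT label and 71.5 CPM under the FKO label.

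Among the packing genes, SLC18A2 had 1475 UMIs under the WT label, or 19.2 CPM (18.2 to 20.2). It had 2932 UMIs under the FKO label, or 50.6 CPM (48.8 to 52.5). The FKO label was the higher by a log2 ratio of 1.40 (1.31 to 1.49), of which 0.92 lay above the all-gene median. At no more than 5% mitochondrial UMIs the SLC18A2 ratio was 2.05 (1.64 to 2.49). SLC18A1, which encodes the vesicular transporter VMAT1 of endocrine cells, was low in both libraries. It had 244 UMIs (3.18 CPM) under the WT label and 159 UMIs (2.75 CPM) under the FKO label. The interval of its log2 ratio, -0.51 to 0.084, included 0, while its upper limit lay below the all-gene median, relative to which SLC18A1 was at -0.69. With up to 20% mitochondrial UMIs allowed the ratio was -0.50 (-0.76 to -0.24), so whether its level itself was lower depended on the filter. SLC18A2 gave 85.8% of packing UMIs under the WT label and 94.9% under the FKO label.

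Among the degradation genes, MAOA had 660 UMIs under the WT label, or 8.59 CPM (7.95 to 9.27). It had 2140 UMIs under the FKO label, or 37.0 CPM (35.4 to 38.6). The log2 ratio of 2.10 (1.98 to 2.23) was the highest of the 6 members with a ratio, and 1.63 remained relative to the median of all genes. MAOB was the most abundant member by CPM in both libraries, in counts that are taken at the 3′ end and not divided by gene length.

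MAOB had 14130 UMIs under the WT label, or 184 CPM (181 to 187), and 8544 UMIs under the FKO label, or 148 CPM (144 to 151). Its log2 ratio was -0.32 (-0.36 to -0.28), which put it at -0.79 relative to the all-gene median. The sign of the MAOB ratio itself depended on how cells were pooled. It was 0.19 in cells with at most 5% mitochondrial UMIs (340 cells labelled WT and 2888 labelled FKO) and 0.031 with clusters weighted equally. Relative to the median of all genes MAOB was below 0 in all 10 alternatives run, between -0.89 and -0.28. It was within 1.5-fold of the median in both of the settings just named, at -0.28 and -0.44.

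Over all kept cells the oxidases had ratios of opposite sign. MAOA and MAOB together had 193 CPM (189 to 196) under the WT label and 184 CPM (181 to 188) under the FKO label. The log2 ratio of this sum was -0.062 (-0.098 to -0.026), and -0.54 relative to the all-gene median. MAOA gave 4.46% (4.14 to 4.81) of oxidase UMIs under the WT label and 20.03% (19.3 to 20.8) under the FKO label. This share was higher under the FKO label in 10 of the 11 clusters with at least 50 cells of each library, and the intervals overlapped in 0 of the 11. The exception was cluster 11, with 44.4% (30.9 to 58.6) under the WT label and 15.4% (7.63 to 26.5) under the FKO label.

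**Figure D1:**
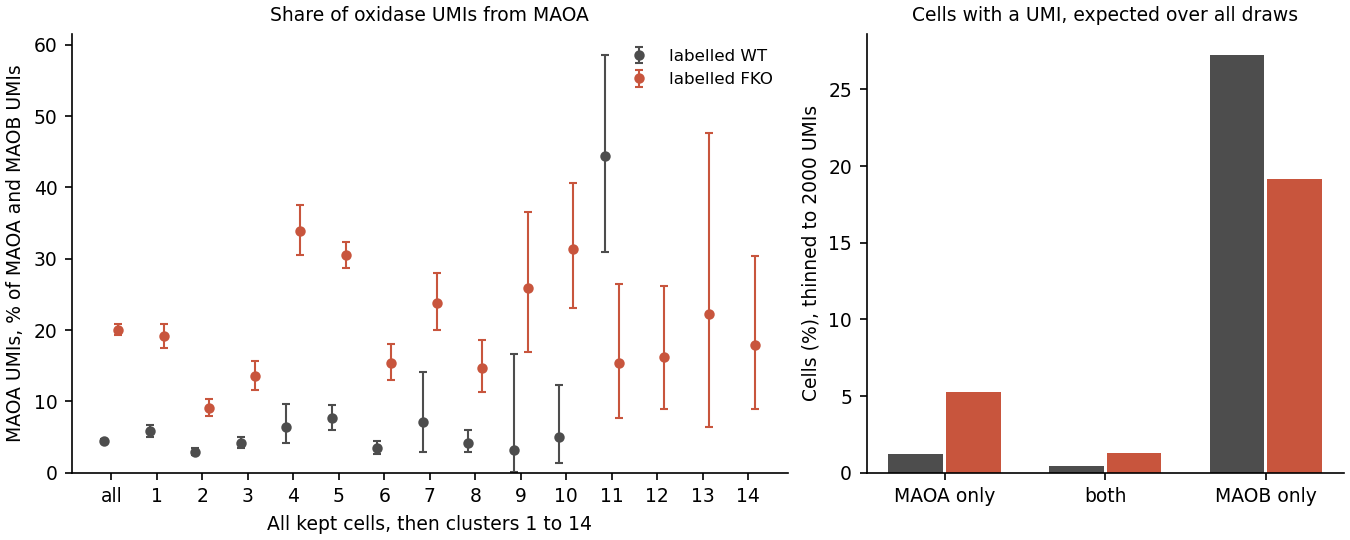
Left, percent of MAOA and MAOB UMIs that came from MAOA in all kept cells and in each cluster with at least 50 cells of a library, with exact binomial intervals. Red points (labelled FKO) lie above grey points (labelled WT) in 10 of 11 clusters. Right, percent of cells with UMIs of MAOA, both oxidases or MAOB after thinning to 2000 UMIs per cell, as the expected share over all draws.

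The ratios moved with gene length across all genes. The median log2 ratio was -0.27 in the decile of genes with the shortest loci and 0.94 in the decile with the longest, and whether intronic reads were counted is not given in the sources used here. Relative to the median of its own length decile, the log2 ratio was 1.36 for MAOA, 0.90 for SLC18A2, 0.54 for SLC6A4 and 0.31 for SLC29A4. It was -1.16 for MAOB. The order of these 5 members was therefore as without this step, and the part of length in each ratio was not tested.

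MAOA and MAOB lie beside each other on chromosome X and point towards each other, with 19.8 kb between their 3′ ends. MAOA spans chrX:43654907-43746824 on the plus strand and MAOB spans chrX:43766611-43882447 on the minus strand (GRCh38). Within 1000 kb of the pair, the other genes that reached 10 CPM were FUNDC1, with 51.5 CPM under the WT label and 36.1 under the FKO label, and KDM6A, with 12.2 and 26.2 CPM. Their log2 ratios were -0.51 and 1.11. Both lie past MAOB, at 641 kb and 991 kb, with genes of lower level between.

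Promoter sequences are shown for the packing gene SLC18A2 and the oxidase MAOB, which lay on opposite sides of the all-gene median. RefSeq promoter windows (GRCh38.p14), the 250 bases before a gene's start, were matched for 5 of the 7 members. SLC22A3 and SLC18A1 were not matched. The windows of SLC6A4 and MAOA lie wholly in the first exon of longer transcripts of GENCODE 29 and are not printed, and the SLC18A2 window is shown up to its first GENCODE exon, 209 bases. The stretches are chr10:117240864-117241072 on the plus strand and chrX:43882451-43882700 on the minus strand, written 5′ to 3′. Capitals mark GC boxes (GGGCGG) and CACCC boxes (CACCC) on either strand, motifs bound by zinc finger factors of the SP and KLF families.
SLC18A2: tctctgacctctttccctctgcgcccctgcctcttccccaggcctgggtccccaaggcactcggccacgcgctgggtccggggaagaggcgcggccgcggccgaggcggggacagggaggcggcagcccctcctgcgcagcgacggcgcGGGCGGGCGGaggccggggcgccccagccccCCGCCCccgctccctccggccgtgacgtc
MAOB: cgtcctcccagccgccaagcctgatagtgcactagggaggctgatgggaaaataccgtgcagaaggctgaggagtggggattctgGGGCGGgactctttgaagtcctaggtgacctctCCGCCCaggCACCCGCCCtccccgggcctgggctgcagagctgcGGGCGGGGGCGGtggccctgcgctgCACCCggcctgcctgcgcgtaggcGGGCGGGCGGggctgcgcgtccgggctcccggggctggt

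In the whole windows of 250 bases, the GC box was found 7 times for MAOB, 4 times for MAOA, 3 times for SLC18A2, 2 times for SLC29A4 and 1 time for SLC6A4. Hits were counted on both strands and may overlap each other or a CACCC box. Of the 35116 promoters in the table, 42.6% held a GC box. CACCC was found 2 times each for MAOB and SLC29A4, 1 time each for MAOA and SLC6A4, and was not in the SLC18A2 window, against 54.7% of all promoters. The cyclic AMP response element TGACGTCA was found 1 time, for SLC18A2, and in 1.65% of all promoters. None of the 5 windows held the TATA box TATAAA (10.7% of all promoters) or the E box CACGTG (6.34%). The same held for the GATA motif AGATAA (9.17%), the ETS core CCGGAAG (8.52%) and the homeobox core TAATTA (4.35%). A match describes the letters in this window and not the binding of a factor.

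Cells fell into 14 clusters, made without the members and the pathway lists among the genes used. Cluster 11 was floor plate-like and cluster 14 mesenchymal-like. Cluster 9 held shallow cells, with medians of 2250 UMIs under the WT label and 2344 under the FKO label. Clusters 13 and 14 held 103 and 71 cells labelled FKO against 0 and 1 labelled WT, so each may be that library and not a type. Cluster 12, cycling-like, held 44 cells labelled WT. The 11 clusters with at least 50 cells of each library were compared by number. Their all-gene median log2 ratios lay between 0.38 (cluster 1) and 0.59 (cluster 10), so the median gene was higher under the FKO label in each. By point value, SLC6A4, SLC18A2 and SLC29A4 were above the cluster's own median in 11 of 11 clusters, and MAOA in 10. Overlap of intervals was not counted over all genes.

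SLC6A4 was higher under the FKO label in 11 of the 11 clusters, and its intervals overlapped in 0. Under the WT label its level ran from 1.45 CPM in cluster 11 to 39.2 CPM in cluster 8, whose interval was above those of 7 of the other 10 clusters. It ran under the FKO label from 12.3 CPM in cluster 11 to 117 CPM (108 to 126) in cluster 3, above the intervals of all 13 other clusters with at least 50 cells. Cluster 3, led by CAV1 and HMX3, had 35.5 CPM under the WT label and gave 25.6% of SLC6A4 UMIs under the FKO label from 13.4% of its cells. SLC6A4 was itself among the 10 leading genes of cluster 3, so its high level there describes the cluster.

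SLC18A2 was also higher under the FKO label in 11 of 11 clusters, and the intervals overlapped in 3. Its levels under the WT label ran from 1.45 CPM in cluster 11 to 38.1 CPM (17.4 to 72.4) in the shallow cluster 9, followed by cluster 5 at 32.2 CPM. Cluster 5, led by EPHA5, was the highest under the FKO label at 81.0 CPM (75.3 to 87.0), and cluster 13 the lowest at 6.37 CPM. The interval of cluster 5 there overlapped those of clusters 9, 8 and 2.

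SLC29A4 was more even across clusters than SLC6A4 and SLC18A2. It was higher under the FKO label in 11 of 11 clusters, and the intervals overlapped in 5. Under the WT label the levels lay between 10.2 CPM in cluster 11 and 19.2 CPM in cluster 5, and the interval of the highest was above that of 0 of the other clusters. Levels under the FKO label lay between 8.49 CPM in cluster 13 and 34.1 CPM in cluster 5.

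SLC18A1 had its highest level in cluster 6, led by the vesicular glutamate transporter SLC17A8, in both libraries. It reached 9.44 CPM (7.37 to 11.9) under the WT label and 6.70 CPM (4.25 to 10.0) under the FKO label. Cluster 6 under the WT label gave 29.1% of SLC18A1 UMIs from 11.03% of the cells. SLC18A2 made up 58.0% of packing UMIs in that cluster under the WT label and 83.2% under the FKO label, the lowest share among the 11 clusters in both. The intervals of SLC18A1 overlapped between libraries in all 11 clusters.

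MAOA was higher under the FKO label in 10 of 11 clusters, and the intervals overlapped in 2. Cluster 5 was the highest under the FKO label, at 81.2 CPM (75.5 to 87.2), above the intervals of all 13 other clusters, and it gave 35.5% of MAOA UMIs from 16.1% of the cells. The same cluster had 16.4 CPM (12.9 to 20.7) under the WT label, and MAOA was among its leading genes. Under the WT label the highest level was in the floor plate-like cluster 11, at 17.4 CPM (11.2 to 25.9), where the library labelled FKO had 10.3 CPM (4.93 to 18.9). Those intervals overlapped, so the lower value labelled FKO in cluster 11 was within counting error.

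MAOB did not differ in 1 direction across clusters. It was higher under the FKO label in 5 of 11 clusters and lower in 6, and in 2 of 11 its ratio was above the cluster's own all-gene median. The intervals overlapped in 5; in the rest, MAOB was higher under the FKO label in clusters 2, 7, 8 and 11 and lower in clusters 1 and 3. Under the WT label its highest level was in cluster 3, at 230.0 CPM (222 to 239), with overlapping intervals in clusters 2 and 8, and its lowest in cluster 11, at 21.8 CPM. Under the other label, FKO, it was highest in cluster 8, at 272 CPM (243 to 302), with an overlapping interval in cluster 2, and lowest in cluster 13, at 14.9 CPM. Cluster 3 had 175 CPM (164 to 187) under the FKO label, so the cluster with the highest SLC6A4 level there was not the one with the highest MAOB level. In clusters 4, 7 and 10, MAOB lay between 28.5 and 65.2 CPM under the WT label and between 53.5 and 60.3 CPM under the FKO label.

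By point value, the balance between packing and degradation went the same way in each cluster. Packing genes gave 10.4% (9.95 to 10.9) of the UMIs of packing and degradation genes under the WT label and 22.4% (21.7 to 23.1) under the FKO label. The share was higher under the FKO label in 11 of 11 clusters, with overlapping intervals in 4, among them cluster 10 at 19.2% and 19.7%. It lay between 3.57% and 22.5% by cluster under the WT label and between 10.96% and 37.0% under the FKO label.

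Depth differed between the libraries, so shares were also taken after a random draw of 2000 UMIs from each cell; 43 cells labelled WT and 116 labelled FKO were too shallow for this. A SLC18A2 UMI was then found in 3.86% (3.37 to 4.39) of cells labelled WT and 8.95% (8.28 to 9.65) of cells labelled FKO, against 20.4% and 28.9% without thinning. SLC6A4 was found in 4.03% and 7.51% of cells, against 19.0% and 21.2% without thinning. MAOA was found in 1.72% and 6.62%, against 8.44% and 19.5%. For these 3 genes the thinned intervals of the libraries did not overlap, and neither did those of SLC29A4 and MAOB. How many of all genes would show this was not counted. Of all genes, 72.5% had a log2 ratio of FKO over WT above 0. A higher share under the FKO label thus does not by itself set a gene apart.

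SLC29A4 was found in 3.38% and 5.60% of thinned cells under the WT and FKO labels, against 19.2% and 19.5% without thinning. MAOB, the member found in most cells, had a UMI in 27.7% (26.6 to 28.9) of thinned cells labelled WT and 19.8% (18.9 to 20.8) of thinned cells labelled FKO, against 70.5% and 44.8%. SLC18A1 was found in 0.789% and 0.437% of thinned cells, with overlapping intervals, against 4.07% and 2.22%. Its expected shares over all draws were 0.680% and 0.586%. SLC22A3 was found in 0 of 5706 thinned cells labelled WT, which allows a share of up to 0.0526% by 3 counts of the total and 0.0646% by the exact interval, and in 1 of 6862 labelled FKO. Such a limit is on cells with a UMI and not on cells that express the gene.

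The floor plate-like cluster 11 was taken as background for the SLC6A4 and SLC18A2 shares. That its cells lack serotonin transport was assumed and not tested. They were sorted for EGFP too, and over both libraries 64.1% had a FEV UMI and 13.5% a TPH2 UMI. The median depth of cluster 11 was 15897 UMIs labelled WT and 11264 labelled FKO. After thinning, SLC6A4 and SLC18A2 were each found in 0 of its 82 cells labelled WT, which allows up to 3.66% by 3 counts of the total and 4.40% by the exact interval, and in 2.74% and 1.37% of its 73 cells labelled FKO. Without thinning, SLC6A4 was found in 2.41% and 12.3% of these cells and SLC18A2 in 2.41% and 9.59%. MAOB was found in 4.88% and 9.59% after thinning, or 28.9% and 32.9% without.

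These shares rest on few cells, and the cluster 11 intervals of SLC6A4 in both libraries, and of SLC18A2 under the WT label, included the share of the whole library. By CPM, which uses all UMIs, 3 members were low in cluster 11 in both libraries. SLC6A4 had 1.45 CPM (0.176 to 5.25) there under the WT label and 12.3 CPM (6.38 to 21.6) under the FKO label. SLC18A2 had 1.45 CPM (0.176 to 5.25) and 8.23 CPM (3.55 to 16.2), and MAOB had 21.8 CPM (14.7 to 31.1) and 56.6 CPM (42.6 to 73.6). For SLC6A4, SLC18A2 and MAOB these intervals lay below the level of the whole library in both cases. SLC18A1 was below it under the WT label alone (0 CPM, 0 to 2.68). MAOA was below it under the FKO label alone (10.3 CPM, 4.93 to 18.9). For SLC6A4, cluster 11 was the lowest cluster in both libraries. The mesenchymal-like cluster 14 had 39.7 CPM (26.8 to 56.7) of SLC6A4 under the FKO label, an interval that included the library's 43.6 CPM. With cluster 14 as background, the SLC6A4 level under that label was thus not set apart.

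SLC29A4 was found in 2.44% of thinned cluster 11 cells with the WT label and in 1.37% with the FKO label (15.7% and 17.8% without thinning). MAOA was found in 3.66% and 1.37% (19.3% and 10.96% without thinning). Cluster 11 had the highest MAOA level under the WT label, so it gives no background for MAOA. Clusters 7 and 10 had 2.195 CPM (0.883 to 4.52) and 2.19 CPM (0.596 to 5.60) under that label, below the level of the whole library. Under the FKO label the same clusters had 18.9 CPM (15.5 to 22.7) and 24.5 CPM (17.2 to 33.7), against 37.0 CPM in the whole library. For SLC29A4 the library value lay within the cluster 11 interval by share and by CPM in both libraries, so cluster 11 did not set its level apart from background.

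The differences were also read within ranges of UMIs per cell, with edges at 1000, 4000, 8000 and 16000. Relative to the all-gene median of each range, the log2 ratio of MAOA was 0.85, 2.01, 1.57 and 1.54 from the shallowest to the deepest range. That of SLC18A2 was 0.73, 0.67, 0.997 and 1.13. That of MAOB was -0.82, -0.69, -0.68 and -0.56. SLC6A4 was less even, at 1.33, 0.34, 0.27 and 0.97, and the shallowest range held 129 cells and 6 SLC6A4 UMIs of the library labelled WT. By point value, each of these 4 members was on the same side of the median in all 4 ranges. In the shallowest range MAOA rested on 4 UMIs labelled WT and SLC18A2 on 7, and the intervals of their ratios (-0.19 to 3.16 and 0.019 to 2.47) included the median of that range, 0.39.

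How often uptake, packing and degradation genes were found together in a cell depended on depth. Without thinning, 471 cells labelled WT (8.19%, 7.50 to 8.93) and 778 labelled FKO (11.1%, 10.4 to 11.9) had a UMI of all 3 roles. Uptake here includes SLC29A4, whose level cluster 11 did not set apart from background, and no background was taken for these shares. The share grew with depth, from 0.775% to 15.8% across the 4 ranges under the WT label and from 1.34% to 48.0% under the FKO label. After thinning to 2000 UMIs in 1 draw, 8 of 5706 cells labelled WT (0.140%) and 20 of 6862 labelled FKO (0.291%, 0.178 to 0.450) had all 3.

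The expected share over all possible draws, added after seeing the data, was 0.129% under the WT label and 0.526% under the FKO label. The draw of the library labelled FKO thus lay below its expected value, beyond the interval of the draw, and the library labelled FKO was the higher in both readings. Over all draws, 63.5% of cells labelled WT and 60.3% labelled FKO were expected to show none of the 3 roles, and 25.2% and 19.0% degradation alone. Packing alone was expected in 2.70% and 5.62%, and uptake with packing in 0.249% and 0.843%.

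**Figure D2:**
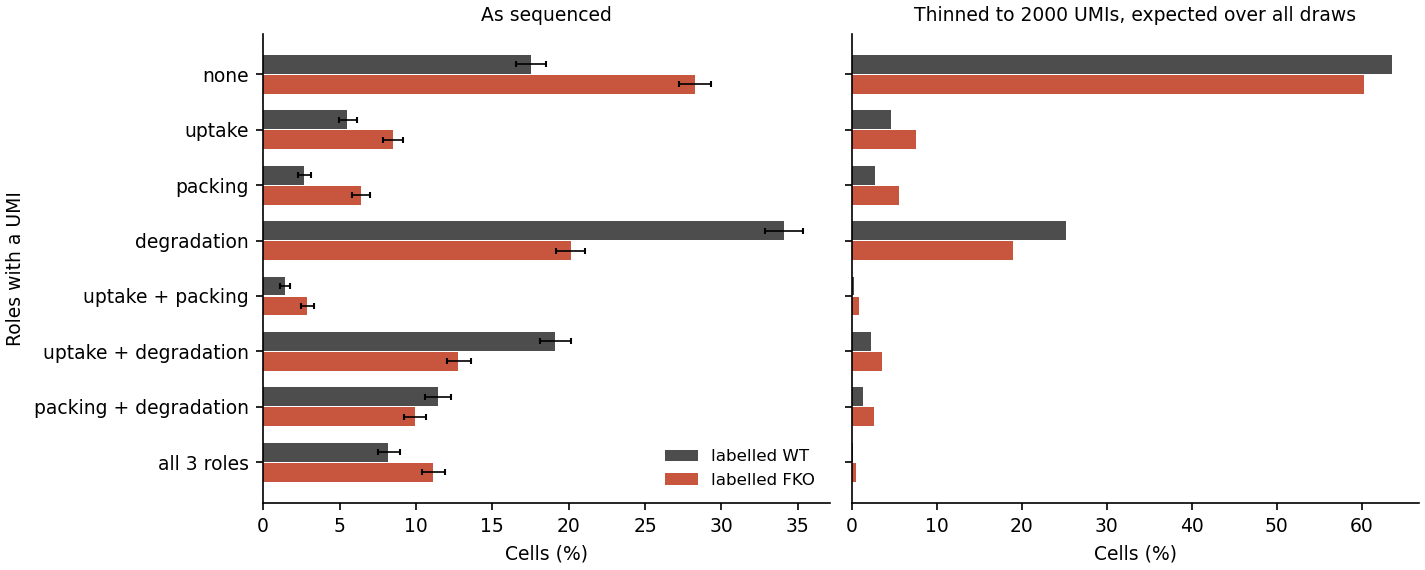
Percent of cells by which of the 3 roles had a UMI, as sequenced (left, with exact binomial intervals) and after thinning to 2000 UMIs per cell as the expected share over all draws (right), in the libraries labelled WT (grey) and FKO (red). Degradation alone is the most frequent state with a UMI in both libraries, at 34.1% and 20.1% as sequenced.

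Pairs of genes were compared with the product of their single shares, both averaged over all draws of 2000 UMIs per cell. SLC6A4 and SLC18A2 were found together 1.35 times as often as that product under the WT label and 1.23 times under the FKO label. SLC6A4 with MAOB gave 1.28 and 1.58, and SLC6A4 with TPH2 gave 1.24 and 1.498. SLC18A2 with MAOA gave 1.24 and 1.33. MAOA with MAOB lay near the product, at 0.94 and 0.97, and SLC6A4 with MAOA gave 1.08 and 0.95. In the single draw, SLC6A4 with SLC18A2 gave 1.35 under the WT label (12 cells) but 0.85 under the FKO label (39 cells), and SLC6A4 with MAOA 0.51 (2 cells) and 0.79 (27 cells). Without thinning, against products taken within deciles of UMIs per cell, SLC6A4 with SLC18A2 gave 1.33 and 1.24. With products also taken within clusters, that pair gave 1.16 and 1.11. Taken in this way, SLC6A4 with MAOB gave 1.05 and 1.17, and SLC6A4 with TPH2 1.06 and 1.12. SLC18A2 with MAOA gave 1.14 and 1.06, MAOA with MAOB 0.94 and 0.96, and SLC6A4 with MAOA 1.05 and 0.999. These are descriptions of cells that share a library, and no chance level was set for them.

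More MAOA than MAOB UMIs were held by 3.94% (3.37 to 4.57) of the cells with an oxidase UMI under the WT label and 19.8% (18.6 to 21.1) under the FKO label. Without thinning, 2.40% of cells labelled WT and 9.14% labelled FKO had MAOA without MAOB, and 6.04% and 10.3% had both. At 2000 UMIs the expected shares were 1.20% and 5.24% for MAOA alone and 27.3% and 19.2% for MAOB alone. The larger share of cells with MAOA under the FKO label was thus seen with and without MAOB.

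Across the 25 points of cluster and library with at least 50 cells, SLC6A4 and SLC18A2 levels ran together, with Pearson's r of 0.88 on log2(CPM + 1). MAOA and MAOB had r of 0.42, or 0.63 after each library's own mean was taken out. The points share 2 libraries and their depths, and r is given as a description. The genes with the highest r with SLC6A4 among 9676 were FGD5 (0.92), ZFHX2 (0.90) and LCORL (0.90). For SLC18A2 they were LCORL (0.94, or 0.93 within libraries), CHGB (0.92 in both) and ZFHX2 (0.92, or 0.895). KIF21B, SP4 and NACAD (each 0.95) were the nearest to SLC29A4. ADGRA1 (0.87, or 0.78 within libraries), ZFR (0.85, or 0.72) and REXO4 (0.84, or 0.73) were nearest to MAOA. These genes were ranked over all points and not within libraries.

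MAOB was nearest to DDC (0.90), TMEM200A (0.90) and GCH1 (0.90). DDC encodes the decarboxylase that makes serotonin, and GCH1 the enzyme that starts the synthesis of the cofactor that TPH2 uses. DDC had 269 CPM under the WT label and 225 under the FKO label. MAOB also had r of 0.86 with FEV and 0.85 with TPH2, whereas MAOA had 0.21 and 0.32. Within libraries these were 0.899 and 0.85 for MAOB, and 0.63 and 0.55 for MAOA. SLC6A4 had r of 0.62 with TPH2, or 0.81 within libraries, and SLC18A2 had 0.69, or 0.86. With DDC, SLC18A2 had 0.76, or 0.94 within libraries, and MAOB 0.90, or 0.91. With GCH1, MAOA had 0.52, or 0.72 within libraries.

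The other genes of the pathway were read by the same rule, under which 17.9% of all genes were higher and 23.4% lower. Of 10 synthesis genes, 7 reached 10 CPM, 0 were at least 1.5-fold higher and 6 lower relative to the all-gene median, with a median log2 ratio of -0.49. TPH2 itself had 198 CPM under the WT label and 161 under the FKO label. Over all kept cells TPH2, DDC and MAOB had log2 ratios below 0, though the sign for MAOB depended on the setting. SLC6A4, SLC18A2 and MAOA had ratios above 0, as did 72.5% of all genes. Of the other metabolism genes reported, 3 reached 10 CPM and 2 were lower, AKR1A1 and AKR1B1. ALDH2, which oxidises the aldehyde that the oxidases make, had 66.1 and 61.7 CPM.

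The 7 other monoamine or related transporters on the list were all below 10 CPM, and the noradrenaline and dopamine transporters SLC6A2 and SLC6A3 had at most 1 UMI in each library. Vesicular packing is driven by the vacuolar proton pump, of whose 20 genes 17 reached 10 CPM, with 1 higher (ATP6V0A2), 7 lower and a median log2 ratio of 0.05. Uptake by SLC6A4 is driven by the sodium gradient, and of 6 sodium pump genes 5 reached 10 CPM, with 0 higher, 0 lower and a median of 0.39.

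Of 6 genes known as regulators of the oxidase genes, 4 reached 10 CPM. KLF11 had 6.37 CPM under the WT label and 15.4 under the FKO label, and SP1 had 5.82 and 14.9, both at least 1.5-fold higher relative to the median. EGR1 was lower, at 16.0 and 9.60 CPM. Each of these 3 reached 10 CPM only in the library where it was higher, as did ATP6V0A2 and the synthesis gene TH, so the difference itself let them be counted. SP3 had 17.1 and 34.1 CPM and was within 1.5-fold. Of 6 serotonergic factors, 5 reached 10 CPM, with LMX1B higher (32.9 and 71.4 CPM) and FEV (1584 and 908 CPM) and INSM1 lower.

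Markers of several other cells moved with the libraries too, and their part in the members' ratios was not tested. The counts below are of ratios above 0, which 72.5% of all genes had. Mesenchymal markers were higher under the FKO label in 6 of 6 genes, summing to 36.5 and 228 CPM. COL1A2 (2.75 and 85.2 CPM) led under the FKO label but gave little of the sum under the WT label. Astroglial markers were higher in 4 of 4 (8.94 and 42.5 CPM, led by S100B), and oligodendrocyte lineage markers in 5 of 5 (22.1 and 52.8 CPM, led by MBP). Floor plate markers were higher in 3 of 5 (46.7 and 65.4 CPM, led by SPON1), but this list holds FOXA2, without which the other 4 summed to 42.4 and 43.6 CPM, with SPON1 at 27.8 in both. Cycling markers, no more often than all genes, were higher in 3 of 5 (49.0 and 69.6 CPM, led by CENPF). In the mesenchymal-like cluster 14, MAOA had 13.2 CPM, SLC18A2 25.2 CPM and MAOB 60.9 CPM, all below their level in the library labelled FKO. SLC6A4 had 39.7 CPM (26.8 to 56.7) there and SLC29A4 17.2 CPM (9.17 to 29.4), intervals that included their level in that library.

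Serotonergic markers were higher under the FKO label in 4 of 6 genes, but their sum was 2435 CPM labelled WT and 1999.8 CPM labelled FKO, led by FEV, which was found in 97.9% and 91.0% of cells. Neuronal markers were higher in 5 of 5 (4869.7 and 6478 CPM, led by STMN2). Glutamatergic markers summed to 169 and 128 CPM (2 of 3 higher, led by SLC17A8), and progenitor markers to 185 and 145 CPM (1 of 4, led by SOX2). Catecholaminergic markers summed to 17.5 and 7.77 CPM (1 of 5, led by TH), cholinergic or motor markers to 4.95 and 2.95 CPM (1 of 4, led by ISL1) and GABAergic markers to 2.24 and 4.39 CPM (3 of 3, led by GAD1). Endothelial markers were near 0 (0.521 and 0.725 CPM, 2 of 3, led by CLDN5), as were microglial markers (0.0911 and 0.224 CPM, 1 of 3, led by AIF1), with CSF1R at 0 in both.

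In the 8 clusters with the highest FEV levels, a choice made after seeing the data, the log2 ratio was 2.22 for MAOA, 1.48 for SLC18A2, 1.11 for SLC6A4 and 0.82 for SLC29A4. It was -0.24 for MAOB. In cells without a FOXA2 UMI, also chosen after seeing the data, these ratios were 2.15, 1.43, 1.06, 0.78 and -0.33. Under the WT label, MAOB had 107 CPM (96.1 to 119) in the 215 cells with a FOXA2 UMI and 187 CPM (184 to 191) in the others. Under the FKO label it had 129 CPM (119 to 139) in 479 such cells and 150 CPM (146 to 153) in the others. SLC6A4 was also lower in cells with a FOXA2 UMI, at 9.55 against 21.7 CPM under the WT label and 30.7 against 45.01 CPM under the FKO label. SLC18A2 was lower as well, at 13.1 against 19.5 and 31.6 against 52.6 CPM. MAOA was lower under the FKO label (26.3 against 38.1 CPM), but under the WT label it had 8.95 and 8.58 CPM, with overlapping intervals. These contrasts were not taken within clusters: cluster 11 held 45 of the 215 such cells labelled WT, and clusters 7, 10 and 11 held 90, 59 and 58 of the 479 labelled FKO, and SLC6A4, SLC18A2 and MAOB were low in these clusters.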

How the data were processed

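The files the authors deposited hold raw UMI counts of each gene in each barcode, from 10x 3′ version 3 libraries, made with Cell Ranger (7.1.0 in the file header, 7.0 in the submitters' processing notes) on GRCh38. Kept cells had 1000 or more UMIs, 500 or more genes and no more than 10% mitochondrial UMIs. Scrublet's own threshold marked 0 cells, so its highest scores among all barcodes, 0.8% per 1000 barcodes, were marked as doublets (977 labelled WT and 620 labelled FKO). Removing them took the cells past the other filters from 6385 to 5749 and from 7573 to 6978. Work used Python 3.11.15, scanpy 1.11.5, scipy 1.17.1 and leidenalg 0.10.2, with gene positions from GENCODE 29. The functions for ratios and thinning were tested on simulated data. With 1 library per condition, no test was run: pooled CPM, log2 ratios relative to the median of all genes, shares at 2000 UMIs per cell and values per cluster are given. Members and lists were chosen with earlier results of these data known. The neighbours FUNDC1 and KDM6A, TNRC18, and the clusters singled out were chosen after their values were seen. Alternatives varied filters, doublets, cell sets, weighting, thinning and thresholds. Some genes are not reported here.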

Additional observations from a re-analysis of the deposited data

How the results depend on the processing

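Of 118 values under alternative settings, 78 stayed within the error of the value reported (for counts of members, within 1.5-fold), 38 moved beyond it and 2, both of MAOB, changed the sign of a ratio whose interval left out 0. SLC18A1, whose interval included 0, also had the other sign in 1 of the 38. The cause was not tested for any of them, and SLC22A3 had no ratio under any setting reported. No paired analysis was possible because each condition had 1 library.

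The log2 ratio of MAOB changed sign at no more than 5% mitochondrial UMIs (0.19) and with clusters weighted equally (0.031). The 5% limit also moved SLC6A4 to 1.14, SLC29A4 to 0.92, SLC18A2 to 2.05, SLC18A1 to 0.64 and MAOA to 3.104, and left 0 members lower. The count of higher members was 3, with SLC6A4 added, at that limit, with doublets kept and in clusters 1 to 6, 8 and 9. In cells with a TPH2 UMI the ratios were 1.22 for SLC6A4, 1.51 for SLC18A2, 2.28 for MAOA and -0.20 for MAOB. SLC6A4 was 1.26 with clusters weighted equally. MAOB was -0.24 in clusters 1 to 6, 8 and 9, and -0.41 as a mean of per-cell CPM. With all deposited barcodes SLC18A1 was -0.52 and the median of all genes 0.49. That median was 0.59 over genes with a CPM of at least 1 and 0.31 at 50. At a fold of 2, 1 member was higher and 0 lower.

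Shares of cells with several members depended on depth. All 3 roles were found in 8.19% (WT) and 11.1% (FKO) without thinning and 0.862% and 4.39% at 5000 UMIs. SLC6A4 with SLC18A2 was found in 5.43% and 8.91%, and 0.844% and 3.87%, and MAOA with MAOB in 6.04% and 10.3%, and 1.87% and 5.42%. At 2000 UMIs the library labelled FKO gave 0.458% for all 3 roles and 0.822% for SLC6A4 with SLC18A2 at up to 20% mitochondrial UMIs, and 0.526% and 0.832% averaged over all draws. In cells with a TPH2 UMI it gave 0.714%, 1.04% and, for MAOA with MAOB, 2.14%.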

Other observations

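Serotonin receptors, which sense the transmitter that the members clear and store, were low in both libraries. Of 14 receptor genes, 0 reached 10 CPM, and HTR1F had no UMI in either library. The autoreceptor gene HTR1B had 3.42 CPM under the WT label and 9.58 under the FKO label, and HTR1D had 6.25 and 7.36 CPM. HTR1A had 22 UMIs labelled WT and 112 labelled FKO.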
